A study of Mus musculus with 16 samples.

Results

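The genes of the major histocompatibility complex (MHC) and of its antigen-presenting machinery were compared between mice given BAY2416964 (BAY) and mice given vehicle (VEH). A gene was taken where its row was protein coding and its symbol began with H2- or was B2m, Tap1, Tap2, Tapbp, Cd74, Ciita or Nlrc5. This gave 25 of 21011 genes in the skeletal muscle table and 41 of 38933 in the cortical bone table, with 25 genes in both and 16 in bone alone. Of the muscle genes 15 serve class I and 9 serve class II, against 29 and 11 in bone. The remaining member in each table, H2-Ke6, carries an H2- symbol but encodes a hydroxysteroid dehydrogenase. Another 4 muscle rows and 10 bone rows with an H2- symbol were not protein coding and were left out.

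The study asked how blocking the aryl hydrocarbon receptor (AhR), a ligand-activated transcription factor, affects muscle and bone in old mice. All animals were female C57BL/6 mice that were 18 months old when dosing began, and they received BAY, an AhR antagonist, at 30 mg/kg or its vehicle by oral gavage on 5 days per week for 8 weeks. Bulk RNA-seq was run on the tibialis anterior (TA) muscle and on cortical bone, with 4 libraries per group and tissue and each library from 1 mouse. The mice carried no transgene, and the bone was the shaft left after marrow cells had been taken out and the surface digested with collagenase.

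MHC class I molecules are found on nearly all nucleated cells and show peptides from inside the cell to CD8+ T cells. A heavy chain, encoded in mice by H2-K1 and H2-D1 and by the less polymorphic class Ib genes of the Q, T and M regions, pairs with the light chain beta-2 microglobulin (B2m). Peptides are pumped into the endoplasmic reticulum by the transporter made of Tap1 and Tap2 and loaded with the help of tapasin (Tapbp), and Nlrc5 is the transactivator of these genes. H2-Aa encodes a class II alpha chain, and H2-Ab1 and H2-Eb1 encode beta chains. Whether each chain formed a molecule in these mice was not measured. Class II molecules pair an alpha with a beta chain and are made mainly by dendritic cells, macrophages and B cells under the transactivator Ciita. They are escorted by the invariant chain (Cd74) and edited by the DM and DO chains. Resting muscle fibres make little of either class.

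Of the 7 class I genes that were higher after BAY in muscle, H2-T23 held no match to any motif searched, and its promoter is not shown. The promoters of the other 6 are shown because the muscle result turns on these genes, and that of the class II gene H2-Ab1 is shown for contrast. Each is the 250 bases before the start of the gene's canonical transcript in GENCODE M39 on GRCm39, written 5′ to 3′ on the gene's strand. The capitals mark matches, on either strand, to the inverted CCAAT box ATTGG (the Y box bound by NF-Y), the class I kappa B core GGGATTCCC and the xenobiotic response element core GCGTG to which AhR binds.
H2-K1, chr17:34219322-34219571, minus strand: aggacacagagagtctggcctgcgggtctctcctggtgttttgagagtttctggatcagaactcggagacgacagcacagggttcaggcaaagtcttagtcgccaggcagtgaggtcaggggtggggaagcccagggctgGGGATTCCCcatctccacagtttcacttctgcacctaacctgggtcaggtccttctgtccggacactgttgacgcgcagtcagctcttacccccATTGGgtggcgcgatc
H2-Q4, chr17:35598336-35598585, plus strand: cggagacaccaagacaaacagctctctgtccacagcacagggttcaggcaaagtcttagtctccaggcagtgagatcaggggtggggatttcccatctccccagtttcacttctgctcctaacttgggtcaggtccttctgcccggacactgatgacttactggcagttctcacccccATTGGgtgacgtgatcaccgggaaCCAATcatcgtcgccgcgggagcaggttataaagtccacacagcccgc
H2-Q6, chr17:35643527-35643776, plus strand: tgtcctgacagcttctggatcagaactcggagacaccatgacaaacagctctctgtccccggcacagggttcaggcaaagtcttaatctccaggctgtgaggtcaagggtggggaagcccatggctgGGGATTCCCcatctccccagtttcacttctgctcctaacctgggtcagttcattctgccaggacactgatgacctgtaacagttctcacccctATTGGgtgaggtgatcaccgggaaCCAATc
H2-Q7, chr17:35657881-35658130, plus strand: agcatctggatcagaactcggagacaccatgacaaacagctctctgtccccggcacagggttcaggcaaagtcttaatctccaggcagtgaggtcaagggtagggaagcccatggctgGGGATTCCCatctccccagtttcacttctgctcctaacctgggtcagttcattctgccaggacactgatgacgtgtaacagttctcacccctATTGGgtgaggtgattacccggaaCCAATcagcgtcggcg
Tap1, chr17:34406125-34406374, plus strand: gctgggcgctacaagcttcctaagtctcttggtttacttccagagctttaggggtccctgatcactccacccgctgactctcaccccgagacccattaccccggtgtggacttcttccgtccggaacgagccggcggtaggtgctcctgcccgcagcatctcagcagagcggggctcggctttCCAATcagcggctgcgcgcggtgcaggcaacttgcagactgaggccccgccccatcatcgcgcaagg
Nlrc5, chr8:95160769-95161018, plus strand: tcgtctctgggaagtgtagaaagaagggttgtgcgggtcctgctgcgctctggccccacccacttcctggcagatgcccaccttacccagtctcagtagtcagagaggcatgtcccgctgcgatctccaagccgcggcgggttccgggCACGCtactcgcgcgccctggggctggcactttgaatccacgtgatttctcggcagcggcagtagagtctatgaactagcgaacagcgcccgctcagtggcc
H2-Ab1, chr17:34481933-34482182, plus strand: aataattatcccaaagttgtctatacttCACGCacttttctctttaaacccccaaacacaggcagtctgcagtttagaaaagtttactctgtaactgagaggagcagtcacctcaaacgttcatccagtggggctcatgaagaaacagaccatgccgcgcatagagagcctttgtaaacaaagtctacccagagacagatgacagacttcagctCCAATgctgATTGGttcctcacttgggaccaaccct

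These windows were searched with 21757 promoters of the same length. The inverted CCAAT box was in 27 of 41 member promoters and in 36.5% of all promoters, with 18 of 29 class I and 8 of 11 class II genes holding it. The kappa B core was in 75 promoters, 0.345% of all, and 3 of these belonged to H2-K1, H2-Q6 and H2-Q7, where it lay 110, 123 and 132 bases before the start. No class II member held it. The GCGTG core was in 7 member promoters and in 31.2% of all promoters, and Nlrc5 was the one class I gene among the 7 higher in muscle that held it. Of the interferon motifs, the core of the interferon-stimulated response element, searched as GAAANNGAA, was in 4 members and 7.56% of all promoters. The gamma-activated site TTCNNNGAA was in 5 members and 7.7% of all. Neither of these letter patterns was in any of the 7 genes higher in muscle. The windows of H2-K1, H2-Q4, H2-Q6 and H2-Q7 hold agtttcacttct, as does that of H2-Q10, which did not pass in muscle. On its other strand GAA comes before GAAA, an order that was not searched. The counts therefore do not show that these promoters lack an interferon element. No match overlaps another in the printed windows, and these are letter matches only.

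Depth and library makeup differed between the tissues. Muscle libraries held between 6131681 and 9262260 reads on genes and bone libraries between 930311 and 6951845, so that 3 reads corresponded to between 0.324 and 0.489 CPM, reads scaled to the total of the library, in muscle and between 0.432 and 3.22 CPM in bone. In muscle, VEH replicate 3 stood apart, with 4 adipocyte markers summing to 169 CPM against 2.79 to 8.38 in the other VEH-treated mice and 1.65 to 3.79 in the BAY-treated mice. Its 7 macrophage markers summed to 25.0 CPM against 7.37 to 14.4 in the other 7 libraries. In bone, the muscle fibre markers Acta1, Ckm, Myh4 and Tnnt3 summed to 18270 and 20528 CPM in BAY replicates 1 and 2 and to 13.1 to 3271 CPM in the other libraries. Olfactory receptor genes, taken here without a test as genes that neither tissue uses, took 0.0513% to 3.52% of the CPM of each bone library and 0.00236% to 0.0033% in muscle. The muscle table held 43 such genes, against 1353 with an exon length in the bone table, so their level per gene is not compared between the tissues. These differences are taken up beside the results they touch.

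In TA muscle, part of the class I genes were higher in BAY-treated mice by an unadjusted P, none by an adjusted P, and no class II gene passed either. Of the 25 members, 7 had an unadjusted P under 0.05 by limma, and these were all class I genes and all higher after BAY: H2-Q4, H2-Q7, Tap1, Nlrc5, H2-Q6, H2-K1 and H2-T23. That is 7 of 15 class I genes, where 6.71% of all genes were higher with a P under 0.05. It is also 0 of 9 class II genes, which is near the background of 6.71% higher and 3.07% lower and is no result about class II. The study's rule was an unadjusted P under 0.05 with a fold change of at least 2, applied to limma-voom. The study reports more called genes in muscle than this fit gave, so the calls and shares here are not its own. At these thresholds this fit called 4 members, H2-Q4, H2-Q7, Tap1 and Nlrc5, against a background of 1.33% of all genes called higher and 1.09% called lower. The count fell to 1 with log2(CPM + 1) and without VEH replicate 2, and to 2, H2-Q7 and Tap1, with median centring, quantile normalization, array weights or without BAY replicate 4. The 1 gene left was H2-Q7 with log2(CPM + 1), where Tap1 fell to 0.93, and Tap1 without VEH replicate 2, where H2-Q7 fell to 0.94. H2-Q4 also lost the call without VEH replicate 3 and without BAY replicate 2, at a log2 fold change of 0.97 in both. In the settings with a count of 1 or 2, H2-Q4 and Nlrc5 kept an unadjusted P under 0.05 with log2 fold changes from 0.79 to 0.9965, both of Nlrc5, below the limit of a 2-fold change. Where only genes averaging 1 CPM or more were taken, 20 of them members, the share with a P under 0.05 and a higher level was 9.49%, and 3.07% of all genes had a P under 0.05 and a lower level. No gene of the muscle table reached an adjusted P under 0.05 in this fit: the smallest was 0.184 over all genes and 0.206 among the members, while 2056 genes had an unadjusted P under 0.05. The 8 class I genes that did not pass were H2-D1, H2-T22, Tap2 and Tapbp, with log2 fold changes above 0, and B2m, H2-T24, H2-M3 and H2-Q10, with log2 fold changes below 0. The difference between the 2 classes was not tested, since both were chosen with earlier results known.

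The median log2 fold change over the 15 class I genes was 0.40, that over the 9 class II genes −0.13 and that over all genes 0.057. Within class I, 11 of 15 genes had a log2 fold change above 0, and within class II 4 of 9, where 55.2% of all genes did.

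**Figure D1:**
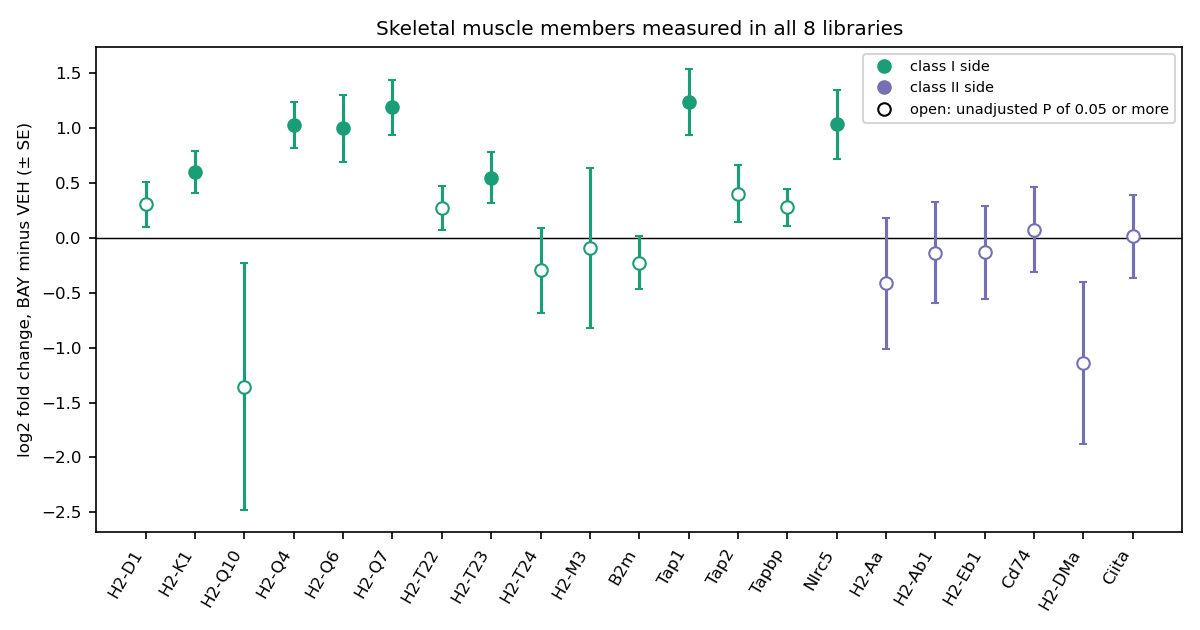
Log2 fold change between BAY and VEH in TA muscle with its standard error (y axis) for each of the 21 MHC members with reads in all 8 libraries (x axis, ordered by role; H2-Ke6 left out). Class I genes are green and class II genes purple, filled where the unadjusted limma P was under 0.05. The 7 filled points are all class I, from 0.55 for H2-T23 to 1.23 for Tap1, and the class II points lie between −1.14 and 0.074 with error bars that reach 0 for all except H2-DMa.

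The classical heavy chains were the most abundant members in muscle per kb of exon, with H2-D1 at a mean of 14.8 and H2-K1 at 12.7 CPM per kb. H2-K1 (chr17:34214991-34219321) was measured at 28.2, 29.98, 42.3 and 27.1 CPM in VEH replicates 1 to 4 and at 41.0, 45.5, 39.5 and 69.3 CPM in BAY replicates 1 to 4. The groups overlapped only through VEH replicate 3. The mean was 31.9 ± 7.06 (SD, n = 4) against 48.8 ± 13.9 CPM (n = 4), a log2 fold change of 0.60 ± 0.19 (SE; limma P = 0.00717, adjusted P = 0.342; exact 2-sided permutation P = 0.0857).

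H2-D1 (chr17:35481706-35486475) was measured at 32.5, 36.1, 60.5 and 31.7 CPM in VEH replicates and at 44.99, 44.0, 41.4 and 63.5 CPM in BAY replicates. VEH replicate 3 was again high, above all BAY libraries except replicate 4. The log2 fold change was 0.30 ± 0.20 (SE), which did not pass (limma P = 0.155; exact permutation P = 0.314). Without VEH replicate 3, the library with the adipocyte transcripts, it was 0.52 with an unadjusted P under 0.05 (adjusted P = 0.331 in limma), and H2-T22 and Tapbp then also passed an unadjusted P of 0.05 while H2-T23 did not.

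H2-K1 over H2-D1, both per kb, was 0.815, 0.780, 0.658 and 0.802 in VEH replicates and 0.856, 0.971, 0.896 and 1.02 in BAY replicates, so the groups did not overlap. The nearest libraries were at 0.815 and 0.856, and the ratio between members was given no test.

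The Q region genes had the largest differences of the heavy chains. H2-Q4 (chr17:35598593-35604266), a class Ib heavy chain with broad expression, was measured at 8.57, 5.16, 5.94 and 7.73 CPM in VEH replicates and at 10.99, 15.5, 11.98 and 17.3 CPM in BAY replicates. All BAY-treated mice lay above all VEH-treated mice. The means were 6.85 ± 1.57 and 13.9 ± 2.96 CPM (SD, n = 4 each), with a log2 fold change of 1.03 ± 0.21 (SE; limma P = 0.000245, adjusted P = 0.206; exact 2-sided permutation P = 0.0286, the smallest that 70 assignments allow).

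H2-Q7 (chr17:35658131-35662749), which with its neighbours encodes the nonclassical molecule Qa-2, was measured at 7.66, 3.53, 6.48 and 6.71 CPM in VEH replicates and at 9.55, 15.003, 13.5 and 16.3 CPM in BAY replicates. Here too the groups were separate. The means were 6.09 ± 1.79 and 13.6 ± 2.92 CPM (SD, n = 4 each), with a log2 fold change of 1.19 ± 0.25 (SE; limma P = 0.000333, adjusted P = 0.206; exact permutation P = 0.0286).

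The adjusted P of these genes depended on the constant added before the logarithm. On the log2(CPM + 0.1) scale both H2-Q4 and H2-Q7 passed over all genes (limma adjusted P = 0.0428 and 0.0331), and with log2(CPM + 1) H2-Q7 did (limma adjusted P = 0.0474) with H2-Q4 at 0.0597. On reads recovered from the values and fitted with voom the adjusted P of H2-Q7 was 0.0506. Over the other alternatives tried, leave-one-out fits included, the adjusted P ran from 0.0653 to 0.651 for H2-Q4 and from 0.087 to 0.651 for H2-Q7.

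H2-Q6 (chr17:35643826-35649031), which shared most of its non-unique windows with H2-Q7, was measured at 4.54, 2.47, 5.07 and 7.60 CPM in VEH replicates and at 7.38, 7.99, 8.66 and 13.4 CPM in BAY replicates. Only the highest VEH and the lowest BAY library crossed. The log2 fold change was 1.00 ± 0.31 (SE; limma P = 0.00613, adjusted P = 0.334; exact permutation P = 0.0571), a fold of 1.99 that stopped just short of the study's limit. H2-Q10, named here after its values were seen, is a secreted heavy chain made chiefly by the liver and was between 0.129 and 0.363 CPM in 7 libraries but at 7.34 CPM in VEH replicate 3.

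Reads of the Q genes could in part be shared. Of all 150-base windows of their transcripts, 5.05% in H2-Q4, 4.18% in H2-Q7 and 2.97% in H2-Q6 also occurred in another gene of chromosome 17, against 0.124% in H2-K1, and the recovered reads were fractions in 6, 6 and 5 of the 8 libraries, so the split between these genes is uncertain. The sum of the 4 Q genes does not depend on a split among these 4, though it can on reads shared with genes outside them. It was 21.1, 11.3, 24.8 and 22.4 CPM in VEH replicates and 28.2, 38.8, 34.3 and 47.3 CPM in BAY replicates, with no overlap.

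Of the T region genes, H2-T23, which encodes the ligand Qa-1 of the natural killer cell receptor NKG2A, was measured at 5.01, 3.62, 3.67 and 5.13 CPM in VEH replicates and 6.605, 6.85, 4.64 and 7.43 CPM in BAY replicates. Only BAY replicate 3 fell within the VEH range. The log2 fold change was 0.55 ± 0.23 (SE; limma P = 0.0314, adjusted P = 0.467; exact permutation P = 0.0857), and the call was lost under median centring (0.50), quantile normalization (0.48), array weights (0.46) and without any of VEH replicates 2 and 3 and BAY replicates 1, 2 and 4. The other T and M region genes in muscle, H2-T22, H2-T24 and H2-M3, had log2 fold changes of 0.28, −0.30 and −0.095 and none passed. H2-Ke6 had a log2 fold change of 0.13, and 54.0% of its windows were shared with the overlapping gene Gm20427.

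**Figure D2:**
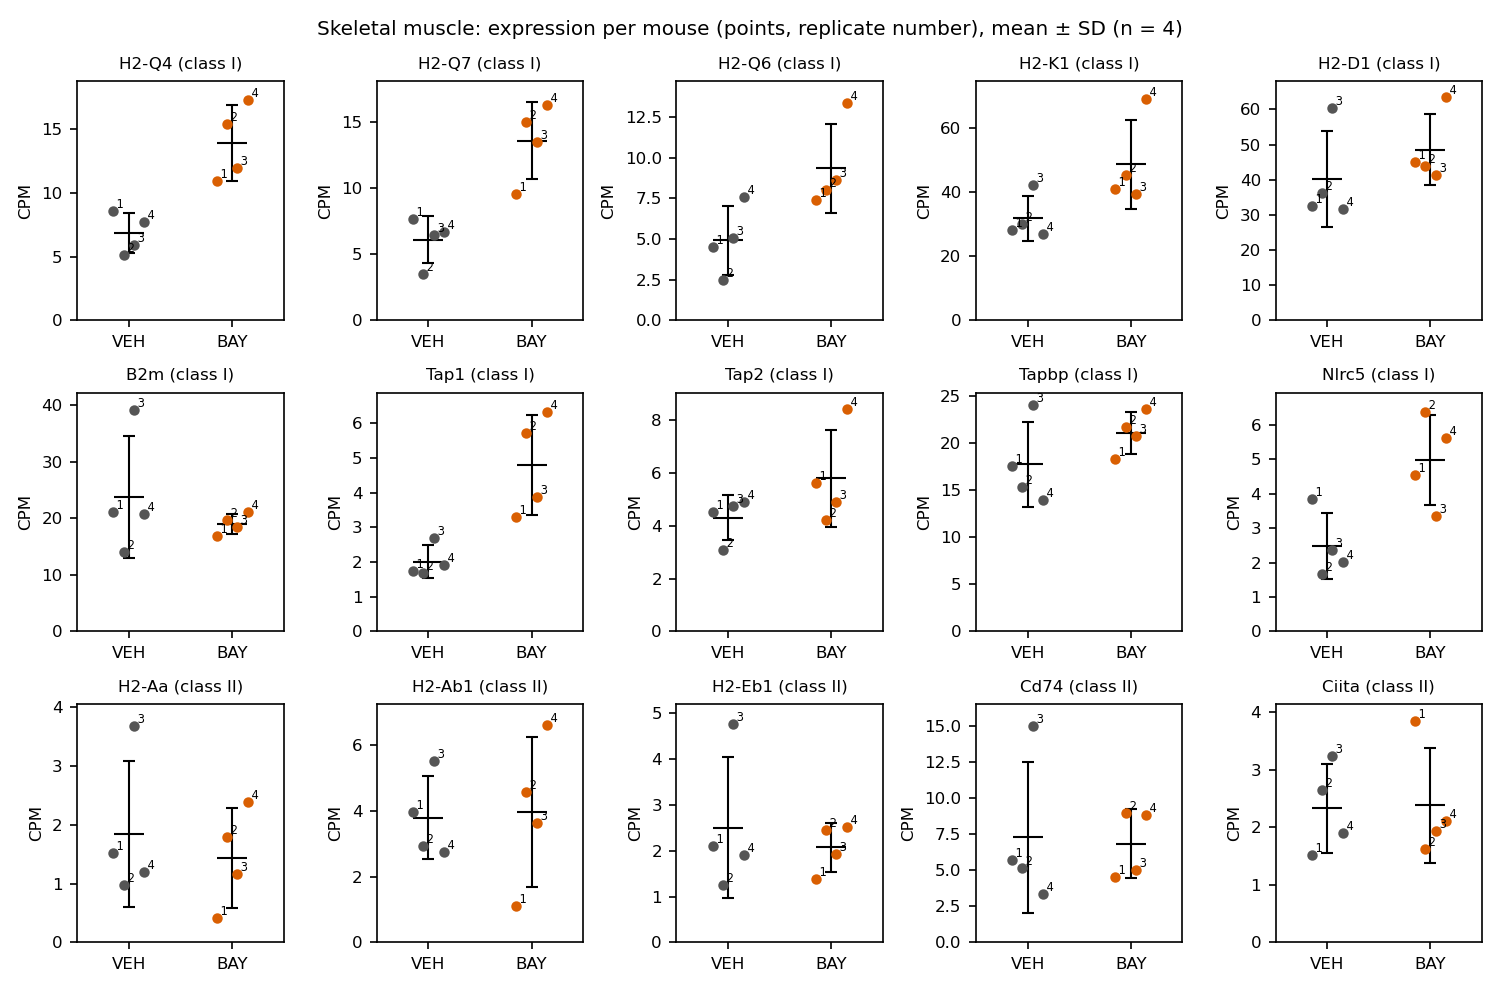
CPM (y axis, starting at 0) of 10 class I and 5 class II members in each TA library, with 4 VEH-treated mice in grey and 4 BAY-treated mice in orange; digits are replicate numbers and bars the mean and SD. For H2-Q4, H2-Q7 and Tap1 all BAY points lie above all VEH points, while for B2m, H2-Aa, H2-Eb1 and Cd74 the highest point is VEH replicate 3.

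Of the 3 genes of the loading machinery, Tap1 was the one that passed. Tap1 (chr17:34406527-34416199), one chain of the peptide transporter, was measured at 1.75, 1.67, 2.699 and 1.91 CPM in VEH replicates and at 3.30, 5.71, 3.87 and 6.31 CPM in BAY replicates. The groups did not overlap. The means were 2.01 ± 0.47 and 4.80 ± 1.44 CPM (SD, n = 4 each), with a log2 fold change of 1.23 ± 0.30 (SE; limma P = 0.0012, adjusted P = 0.275; exact permutation P = 0.0286).

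Tap2, the other chain, had 3.07 to 4.89 CPM in VEH-treated and 4.24 to 8.41 CPM in BAY-treated mice, a log2 fold change of 0.40 ± 0.26 (SE; limma P = 0.143; exact permutation P = 0.2). Per kb, Tap1 over Tap2 was 0.305 to 0.451 in VEH-treated and 0.464 to 1.07 in BAY-treated mice. Tapbp, the bridge between the transporter and the heavy chain, had 13.9 to 24.1 CPM against 18.3 to 23.6 CPM and a log2 fold change of 0.28 ± 0.17 (SE; limma P = 0.131; exact permutation P = 0.2). Of its windows 10.1% were shared, mostly with Zbtb22.

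Tap1 and Tap2 lie in the class II region with the genes of 2 immunoproteasome subunits, and neither of these neighbours passed. On chromosome 17, Psmb9 (chr17:34400961-34406738, minus strand) overlaps the first 212 bases of Tap1 on the opposite strand, and Psmb8 (chr17:34416695-34420428) begins 495 bases beyond its end. Psmb9 had a log2 fold change of −0.094 ± 0.60 (SE; exact permutation P = 0.8) and Psmb8 one of 0.064 ± 0.29 (SE; exact permutation P = 0.743). Psmb9 had means of 0.987 CPM in VEH-treated and 1.05 CPM in BAY-treated mice, so that a change of the size seen in Tap1 is hard to tell at this depth.

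Nlrc5 (chr8:95160984-95253900), the class I transactivator, was measured at 3.84, 1.67, 2.38 and 2.03 CPM in VEH replicates and at 4.54, 6.36, 3.35 and 5.61 CPM in BAY replicates. VEH replicate 1 lay above BAY replicate 3 and the other libraries were separate. The means were 2.48 ± 0.95 and 4.97 ± 1.31 CPM (SD, n = 4 each), with a log2 fold change of 1.03 ± 0.31 (SE; limma P = 0.00568, adjusted P = 0.328; exact permutation P = 0.0571). Its fold was under 2 in the settings named above that lost its call, and also with voom, without VEH replicate 4 and without BAY replicate 2. Ciita, its class II counterpart, was at 1.51 to 3.24 CPM in VEH-treated and 1.63 to 3.85 CPM in BAY-treated mice, a log2 fold change of 0.011 ± 0.37 (SE; limma P = 0.976; exact permutation P = 0.943) whose sign turned under median centring and quantile normalization. Per kb, Ciita was at 0.868 to 2.12 times the mean level of the 43 olfactory receptor genes of the muscle table over the 8 libraries, Nlrc5 at 1.20 to 4.70 times and Tap1 at 1.69 to 7.38 times. Each of these 43 had reads in at least 1 muscle library, so the level may lie above that of receptor genes as a whole, and no member is set aside by it.

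The light chain did not pass. B2m (chr2:121978167-121983564) was measured at 21.1, 14.1, 39.1 and 20.8 CPM in VEH replicates and at 16.8, 19.7, 18.4 and 21.0 CPM in BAY replicates. The BAY libraries lay inside the VEH range. The log2 fold change was −0.23 ± 0.24 (SE; limma P = 0.359; exact permutation P = 0.6), and without VEH replicate 3 it was 0.047. Per kb, B2m over the sum of H2-K1 and H2-D1 was 0.508, 0.311, 0.554 and 0.516 in VEH replicates and 0.286, 0.323, 0.334 and 0.232 in BAY replicates, where VEH replicate 2 was the one VEH library within the BAY range.

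The class II side was low in muscle. None of its 9 genes passed, which is near the background of 6.71% higher and 3.07% lower over all genes. Cd74, the invariant chain and the most abundant class II member at a mean of 2.81 CPM per kb, was measured at 5.70, 5.16, 15.01 and 3.34 CPM in VEH replicates and at 4.54, 8.97, 5.03 and 8.83 CPM in BAY replicates. The ranges overlapped throughout. Its log2 fold change was 0.074 ± 0.39 (SE; limma P = 0.852; exact permutation P = 0.971), and without VEH replicate 3 it was 0.50 (adjusted P = 0.614 in limma).

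H2-Ab1, the class II beta chain, was measured at 3.96, 2.93, 5.51 and 2.74 CPM in VEH replicates and at 1.10, 4.57, 3.61 and 6.59 CPM in BAY replicates, so both the lowest and the highest library were BAY. H2-Aa, the alpha chain it pairs with, had log2 fold change −0.41 ± 0.60 (SE), H2-Ab1 −0.14 ± 0.46 and H2-Eb1 −0.13 ± 0.42, with exact permutation P of 0.6, 0.914 and 0.886. The peptide editors H2-DMa, H2-DMb1, H2-DMb2 and H2-Ob had means under 1 CPM in both groups, and H2-Oa was not a row of the muscle table. H2-DMa had 0.908 ± 0.191 CPM in VEH-treated and 0.522 ± 0.366 CPM in BAY-treated mice (SD, n = 4 each; limma P = 0.144; exact permutation P = 0.171), from 6.1 to 10.2 recovered reads in VEH libraries and 1 to 6.4 in BAY libraries. H2-DMb1, H2-DMb2 and H2-Ob had at most 5 reads in any library and were at 0 in 2, 5 and 4 of the 8 libraries.

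Summed by library, class I heavy chains gave 89.7 to 141 CPM in VEH-treated and 130 to 199 CPM in BAY-treated mice, and the 9 class II members 12.3 to 33.6 and 12.1 to 23.4 CPM. The class II chains over H2-K1 and H2-D1, per kb, were 0.0862 to 0.144 in VEH-treated and 0.0378 to 0.108 in BAY-treated mice. The highest class II sum, 33.6 CPM, and the highest B2m were both in VEH replicate 3, the library with the most macrophage and adipocyte transcripts. The part of these cells in the result was not tested. In bulk tissue, fewer cells of a type and less RNA per cell cannot be told apart.

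The rest of the pathway in muscle was given by lists. Of 10 other class I processing and loading genes, 0 passed an unadjusted P of 0.05 in limma and their median log2 fold change was −0.13. Of 10 other class II genes such as the cathepsins 0 passed, and their median was −0.12. Of 10 other regulators 1 passed with a higher level, near the background of 6.71% of all genes: Irf1, an interferon-induced activator of class I genes, with 4.26, 4.88, 5.25 and 4.84 CPM in VEH replicates and 5.42, 7.68, 5.65 and 7.99 CPM in BAY replicates. The Irf1 groups did not overlap (log2 fold change 0.46 ± 0.21 SE, limma P = 0.0447, adjusted P = 0.5; exact permutation P = 0.0286). The unadjusted call was lost under most other settings, also without any of VEH replicates 1, 2 and 4 and BAY replicates 2 and 4. Over all these settings the log2 fold change stayed between 0.36 and 0.55. Groups without overlap and higher in BAY were found for 4.2% of all genes, and among the members for 3 of 25, H2-Q4, H2-Q7 and Tap1.

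Of 25 interferon response genes, 18 had a log2 fold change above 0, where 55.2% of all genes did, and 1 passed with a higher level, where 6.71% of all genes did, so the count is not above the background. The gene was Gbp4, a guanylate-binding protein, at 6.75, 3.35, 5.33 and 11.3 CPM in VEH replicates and 11.2, 15.98, 9.55 and 16.3 CPM in BAY replicates, with a log2 fold change of 1.09 ± 0.31 (SE; limma P = 0.00386, adjusted P = 0.311; exact permutation P = 0.0857). The median of the list was 0.16 beside 0.057 over all genes.

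Markers of immune cells were low in muscle. Of the T cell markers only Cd3e and Cd8a were rows of the table and summed to 0.698 to 1.51 CPM in VEH-treated and 0.826 to 1.16 CPM in BAY-treated mice. The 3 B cell markers measured here, Cd79b, Ms4a1 and Pax5, summed to at most 1.14 CPM. None of 5 neutrophil markers was a row. Macrophage markers (7 of 8 in the table, Fcgr1 missing) summed to 7.40 to 25.0 CPM in VEH-treated and 7.37 to 11.6 CPM in BAY-treated mice. Dendritic cell markers (6 of 7, Flt3 missing) summed to 10.5 to 13.5 and 12.6 to 16.1 CPM, mostly from Zbtb46, so these sums say little of the other markers. Cd209a had a limma P of 0.00312 (adjusted P = 0.305; exact permutation P = 0.0286), with 0 reads in all BAY libraries. Its VEH values were 0.119 to 0.432 CPM with a mean of 0.295 CPM, where 3 reads were worth 0.324 to 0.489 CPM.

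Endothelial markers, which mark cells rich in class I, summed to 155 to 177 CPM in VEH-treated and 162 to 199 CPM in BAY-treated mice. Among these Cdh5 was higher without overlap, at 66.1 to 71.4 against 76.0 to 102 CPM (log2 fold change 0.31 ± 0.12 SE, limma P = 0.0234; exact permutation P = 0.0286), and the call was lost with quantile normalization, without the trend and without BAY replicate 3. Kdr lay the other way, at 44.3 to 58.3 against 37.7 to 44.6 CPM (log2 fold change −0.24 ± 0.12 SE, which did not pass, exact permutation P = 0.0571). Pecam1, Cldn5 and Emcn had log2 fold changes of −0.025, 0.10 and 0.053. Of the 4 adipocyte markers Plin1, a lipid droplet protein, passed with a lower level in BAY, at 2.33, 1.39, 37.9 and 1.31 CPM in VEH replicates and 0.275, 0.978, 0.903 and 1.82 CPM in BAY replicates (log2 fold change −2.13 ± 0.92 SE, limma P = 0.0368, adjusted P = 0.48; exact permutation P = 0.0857). Without VEH replicate 3 its log2 fold change was −0.99 and the call was lost, as it was without any of BAY replicates 1 to 3 and without the trend. Muscle fibre markers summed to 77880 to 104905 and 84850 to 141927 CPM. The part of these cell types in the class I result was not tested.

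**Figure D3:**
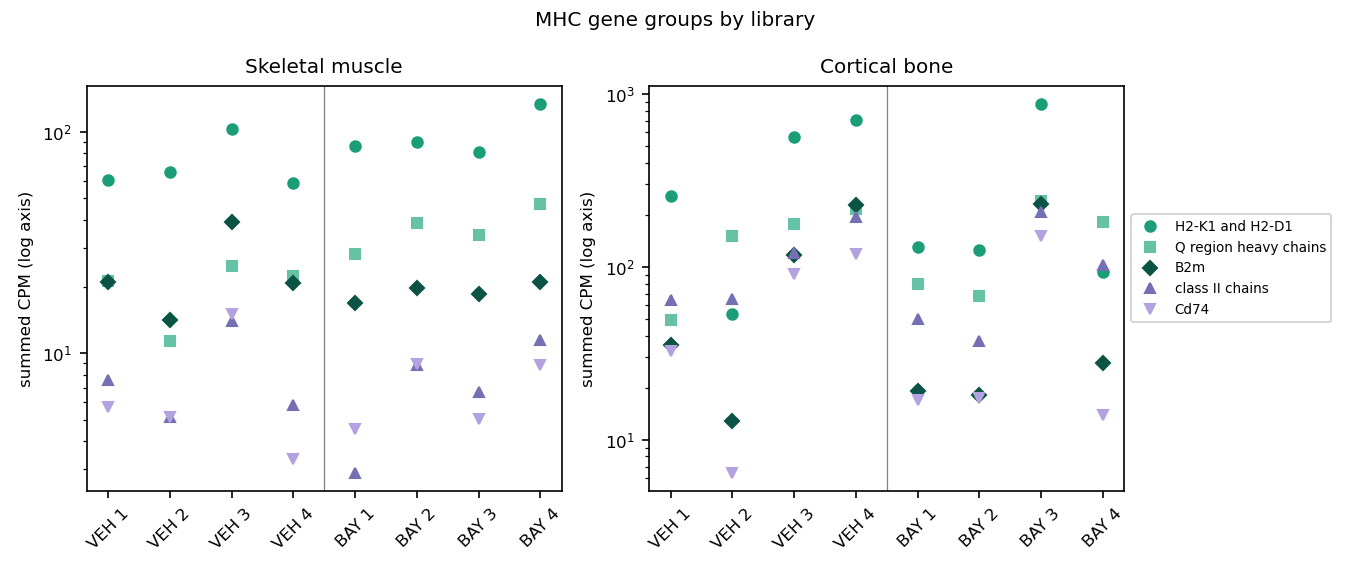
Summed CPM (log axis) of 5 MHC gene groups in each library of muscle (left) and bone (right), VEH left and BAY right of the grey line. In muscle the Q region genes of all BAY libraries, from 28.2 CPM, lie above those of all VEH libraries, up to 24.8 CPM; in bone H2-K1 and H2-D1 together run from 53.4 to 871 CPM and are highest in VEH replicates 3 and 4 and BAY replicate 3.

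In cortical bone the members varied more between mice of 1 group than between the groups. H2-D1 was measured at 174, 26.7, 340 and 455 CPM in VEH replicates 1 to 4 and at 73.6, 71.9, 556 and 45.8 CPM in BAY replicates 1 to 4. H2-K1 was at 81.6, 26.7, 225 and 255 CPM in VEH replicates and at 56.8, 53.3, 315 and 47.3 CPM in BAY replicates. In each group some libraries were high and some low for both genes, with VEH replicates 3 and 4 and BAY replicate 3 on top.

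The log2 fold changes were −0.60 ± 0.95 (SE) for H2-D1 and −0.37 ± 0.82 for H2-K1, with exact permutation P of 0.629 and 0.743. B2m was at 35.1, 12.9, 117 and 228 CPM in VEH replicates and 19.2, 18.2, 230 and 27.9 CPM in BAY replicates, with a log2 fold change of −0.60 ± 0.99 (SE; limma P = 0.55; exact permutation P = 0.771). Cd74 was at 32.7, 6.44, 91.1 and 119 CPM in VEH replicates and 17.0, 17.4, 151 and 13.97 CPM in BAY replicates, with a log2 fold change of −0.47 ± 0.99 (SE; limma P = 0.644; exact permutation P = 0.743). The same 3 libraries were highest for the light chain and the invariant chain as for the heavy chains.

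These libraries were also highest for markers of bone, neutrophils and macrophages, but not for those of other blood cells. The osteoblast and osteocyte markers Bglap, Col1a1, Dmp1 and Sost summed to 19835 and 13877 CPM in VEH replicates 3 and 4 and to 14198 CPM in BAY replicate 3, and to 866 to 4257 CPM in the other 5. Neutrophil markers summed to 330, 1055 and 650 CPM there against 25.0 to 105 CPM, and macrophage markers to 149, 356 and 339 CPM against 47.7 to 104.1 CPM. Erythroid markers were highest in VEH replicates 1 and 4, at 321 and 305 CPM. B cell markers were highest in VEH replicate 2 and BAY replicate 4, at 157 and 160.2 CPM, as were T cell markers at 93.9 and 118 CPM and dendritic cell markers at 267 and 263 CPM. The olfactory receptor level was highest in these same 2 libraries, at 7.52 and 9.06 CPM per kb, and lowest in VEH replicate 1, at 0.132, where the B cell, T cell and dendritic cell sums were also lowest, at 8.63, 1.58 and 20.6 CPM. The part of this level in the marker sums, and of these cells in the MHC values, was not tested. The sum of the bone markers was at most 1233 CPM in 4 libraries, VEH replicate 2 and BAY replicates 1, 2 and 4, and in BAY replicates 1 and 2 the muscle fibre markers were above it.

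**Figure D4:**
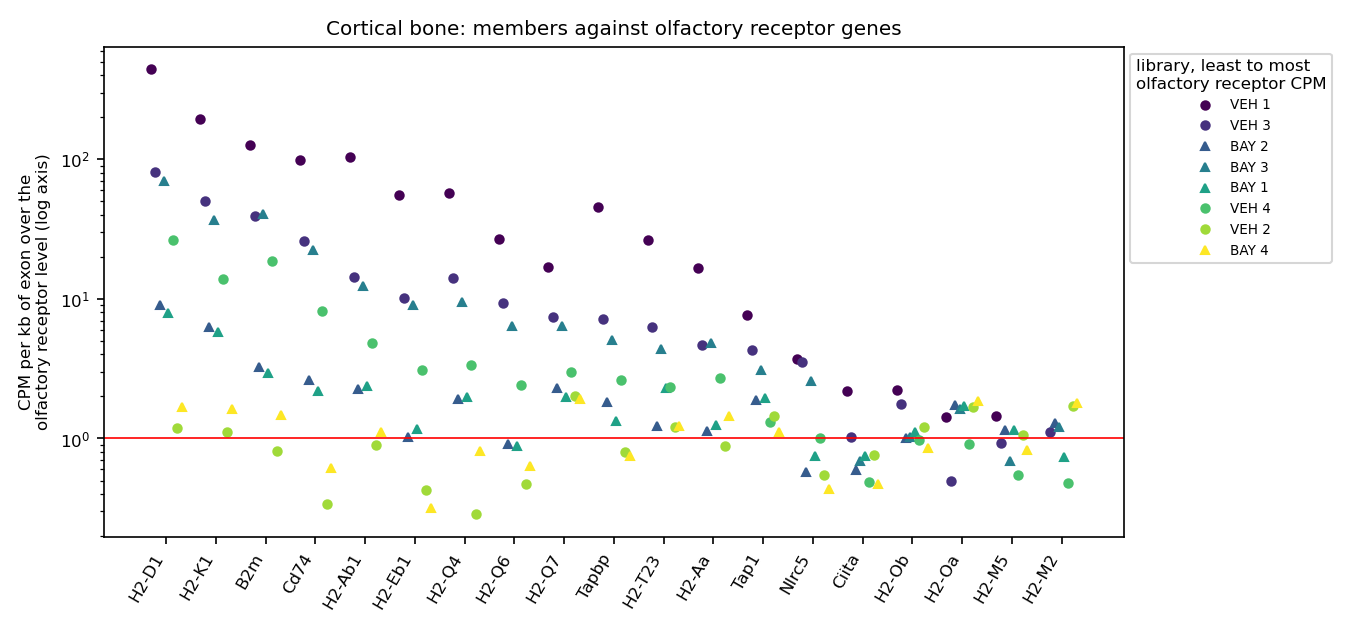
CPM per kb of exon of 19 members in each bone library, divided by that of olfactory receptor genes in the same library (log axis); circles are VEH and triangles BAY, coloured from the library with the least to that with the most olfactory receptor CPM, and the red line is a ratio of 1 (values of 0 are not drawn). H2-D1 reaches the highest ratios and H2-M2 lies near 1, and in VEH replicate 2 and BAY replicate 4 the points stay below 3.

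Much of the member signal in bone was no higher than that of olfactory receptor genes. Olfactory receptor genes had 0.132 CPM per kb in VEH replicate 1 and 1.40 to 9.06 CPM per kb in the other 7 libraries. Beside this level, no member exceeded 3 times it in all 8 libraries and 20 of 41 exceeded it in none, among them Ciita, H2-Oa, H2-Ob and 11 of the 12 M region genes. The number over 3 times was 21, 0, 18 and 7 in VEH replicates and 2, 3, 13 and 0 in BAY replicates, so that in VEH replicate 2 and BAY replicate 4, the libraries with the fewest reads in their groups, none of the 41 stood clear.

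Ciita was at 3.16, 63.5, 15.9 and 31.3 CPM in VEH replicates and 25.5, 17.4, 20.4 and 47.3 CPM in BAY replicates, lowest in VEH replicate 1 and highest in VEH replicate 2. In all, 26 of 41 members were lowest or tied for lowest in VEH replicate 1 and 23 were highest in VEH replicate 2 or BAY replicate 4, while the other 18 were highest in VEH replicates 3 or 4 or BAY replicate 3. H2-Ab1, H2-Eb1, H2-Q4, H2-Q6, H2-T23 and Tapbp were in the latter group with H2-K1, H2-D1, B2m and Cd74. Tap1 and Tap2 were in the former, as was H2-Q7 by a small margin, at 74.5 CPM in BAY replicate 4 beside 73.6 in VEH replicate 4 and 73.4 in BAY replicate 3.

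Few genes of any kind passed an unadjusted P of 0.05 in bone in this fit, 0.545% of all with a higher and 0.095% with a lower level in BAY. So 0 of the 7 genes that were higher in muscle is near the background. The study, with limma-voom, reports more called genes in bone than this fit gave at the same thresholds. These shares are therefore those of this fit alone. Tap1 had 6.04 to 65.4 CPM in VEH-treated and 30.2 to 60.2 CPM in BAY-treated mice, a log2 fold change of 0.58 ± 0.74 (SE), and its transporter partner Tap2 had 6.76 to 41.4 CPM in VEH-treated and 12.8 to 34.6 CPM in BAY-treated mice, one of −0.086 ± 0.71. Nlrc5 had 4.17 to 49.5 CPM in VEH-treated and 12.8 to 58.6 CPM in BAY-treated mice, one of 0.18 ± 0.84. The signs of Tap1 and Nlrc5 turned under median centring, and the median log2 fold change over all bone genes was 0.84 before centring. Tapbp had 26.3 to 67.0 CPM in VEH-treated and 18.3 to 59.5 CPM in BAY-treated mice, one of −0.40 ± 0.61. The exact permutation P of these 4 genes ran from 0.457 to 0.886.

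The Q region genes overlapped widely in bone. H2-Q4 had 7.56 to 70.1 CPM in VEH-treated and 17.8 to 88.6 CPM in BAY-treated mice (log2 fold change −0.032 ± 0.81 SE), H2-Q6 12.1 to 47.7 CPM in VEH-treated and 8.27 to 58.2 CPM in BAY-treated mice (−0.46 ± 0.81) and H2-Q7 9.58 to 73.6 CPM in VEH-treated and 26.0 to 74.5 CPM in BAY-treated mice (0.22 ± 0.73). The secreted heavy chain H2-Q10 had 1.02 to 49.1 CPM in VEH-treated and 10.8 to 49.8 CPM in BAY-treated mice (0.81 ± 1.08), with its lowest value in VEH replicate 1. It was below 3 times the olfactory receptor level in all 8 libraries, and its exact permutation P was 0.714, beside 0.571 to 0.971 for the other 3.

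The T region genes did not pass either. H2-T23 had 11.9 to 45.9 CPM in VEH-treated and 11.2 to 40.3 CPM in BAY-treated mice (log2 fold change −0.085 ± 0.66 SE), H2-T22, a ligand of gamma delta T cells, 11.1 to 23.4 CPM in VEH-treated and 9.23 to 23.8 CPM in BAY-treated mice (−0.029 ± 0.66) and H2-T24 4.75 to 29.1 CPM in VEH-treated and 5.38 to 23.6 CPM in BAY-treated mice (0.019 ± 0.85). H2-M5, the one M region gene averaging at least 10 CPM, had 0.575 to 23.9 CPM in VEH-treated and 5.60 to 22.6 CPM in BAY-treated mice (1.15 ± 1.16) and stayed below 3 times the olfactory receptor level. The exact permutation P of these 4 ran from 0.429 to 1.

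Among the class II genes the chains H2-Ab1, H2-Eb1 and H2-Aa had log2 fold changes of −0.47 ± 0.69, −0.79 ± 0.86 and 0.086 ± 0.76 (SE), with 17.5 to 71.3 CPM in VEH-treated and 15.3 to 84.5 CPM in BAY-treated mice for H2-Ab1. H2-Eb1 had 8.29 to 46.6 CPM in VEH-treated and 7.03 to 62.6 CPM in BAY-treated mice, and H2-Aa 9.49 to 67.7 CPM in VEH-treated and 12.8 to 55.9 CPM in BAY-treated mice. H2-Eb1 was highest in the same 3 libraries as the class I heavy chains. The editors H2-DMa and H2-DMb1 had 3.16 to 31.3 CPM in VEH-treated and 11.7 to 24.7 CPM in BAY-treated mice (0.47 ± 0.84) and 0.719 to 6.55 CPM in VEH-treated and 1.24 to 6.45 CPM in BAY-treated mice (−0.085 ± 1.38). H2-Oa and H2-Ob, the chains that hold DM back, had 0.288 to 19.3 CPM in VEH-treated and 6.62 to 25.8 CPM in BAY-treated mice (1.92 ± 1.37) and 1.58 to 49.7 CPM in VEH-treated and 14.5 to 41.9 CPM in BAY-treated mice (0.59 ± 0.99). None of these passed, and their exact permutation P ran from 0.257 to 0.943. H2-DMb2 was at 0 in VEH replicate 1 and at most 3.68 CPM elsewhere (exact permutation P = 0.714). The difference between muscle and bone was not tested, since the tables were normalized separately.

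At the thresholds of the study's rule, this fit called 1 of 41 members in bone, against a background of 0.545% of all genes called higher and 0.095% called lower. It was H2-M10.5, a heavy chain of the vomeronasal organ, at 0, 0.921, 0 and 0 CPM in VEH replicates and 0.894, 0.827, 0.509 and 4.30 CPM in BAY replicates. These values are between 1 and 4 reads, under 3 reads in 4 of the 5 libraries with any. The limma P was 0.0448 and the exact permutation P 0.114, and the call was absent with log2(CPM + 1), log2(CPM + 0.1), array weights and voom, and without any single mouse other than VEH replicate 2. No member had groups without overlap in bone, where 0.354% of all genes did with the higher level in BAY, and no gene had an adjusted P under 0.05 (smallest 0.887 in limma, with 249 genes at an unadjusted P under 0.05).

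Of the 10 other class I, 10 other class II, 10 regulator and 25 interferon response genes, 0 passed an unadjusted P of 0.05 in bone. In ratio to H2-K1 and H2-D1 per kb, the sum of H2-Aa, H2-Ab1 and H2-Eb1 was 0.279, 0.962, 0.223 and 0.265 in VEH replicates and 0.348, 0.286, 0.245 and 0.861 in BAY replicates. In 4 of these libraries, VEH replicate 2 and BAY replicates 1, 2 and 4, all 3 chains were below 3 times the olfactory receptor level.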

How the data were processed

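Bulk RNA-seq was available for 16 libraries, 4 per group and tissue. Per the labels and the study's methods, the authors aligned reads with STAR 2.7.8a to mm39 and counted and normalized them in Partek, and for each tissue the deposited table holds log2 values of CPM plus a constant, which was 0.0004 in muscle and 0.0001 in bone as read from the values. The study's limma-voom step was not part of these values. Values were returned to CPM, and reads were recovered from the step that 1 read makes (a share of 81.3% to 88.4% of values up to 50 reads came out whole within 0.02 reads). The column of muscle VEH replicate 3 is named as a replacement. No library duplicated another: at most 0.00981% of genes had the same value in any pair.

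BAY and VEH were compared within each tissue on the deposited log2 values with limma 3.58.1 in R 4.3.3 (trended eBayes) across all genes, with Benjamini-Hochberg adjustment, after a test on simulated data; single members were checked by exact 2-sided permutation. P values measure the spread between these mice. Log2 fold changes of genes with libraries at 0 depend on the constant. CPM per kb used the exon length of GENCODE M39, which 99.4% of muscle and 98.9% of bone genes had, and promoters were read from GRCm39 at GENCODE M39 starts. Named with values were the main class I and class II genes, any member with an unadjusted P under 0.05 in either tissue or a mean of at least 10 CPM in that tissue, and list genes with an unadjusted P under 0.05. The rule also named the leading marker of each cell type, which is given here within the sum over its list; other members are given by counts. The members and lists were chosen with earlier results of these data known. Alternatives were the added constant, a 1 CPM filter on the mean, centring on the median, quantile normalization, no trend, array weights, voom on recovered reads, a replicate block and leaving out each mouse.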

Additional observations from a re-analysis of the deposited data

Results flagged for a closer look

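Of 100 groups of 4 libraries checked for a single library far from the other 3, 17 were marked, where chance marks about 5%. In muscle, VEH replicate 3 was far above the rest for H2-D1 (60.5 CPM against 31.7 to 36.1), for H2-T22 (7.45 against 5.02 to 5.37) and for H2-Q10 (7.34 against 0.152 to 0.363). This library also had the highest adipocyte and macrophage marker sums, and their part was not tested. BAY replicate 4 was far above the rest for H2-D1 (63.5 CPM against 41.4 to 44.99). VEH replicate 2 was at 0 CPM for H2-DMb1 (others 0.216 to 0.239) and at 0.139 CPM for H2-DMb2 (others at 0), each a matter of 1 or 2 reads.

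In bone, BAY replicate 3 was far above the other BAY-treated mice for H2-D1 (556 CPM against 45.8 to 73.6), H2-K1 (315 against 47.3 to 56.8), B2m (230 against 18.2 to 27.9), Cd74 (151 against 13.97 to 17.4), H2-Ab1 (84.5 against 15.3 to 25.8), H2-Eb1 (62.6 against 7.03 to 9.39) and H2-Q4 (88.6 against 17.8 to 25.8). Its osteoblast and osteocyte markers summed to 14198 CPM against at most 1233 CPM in the other BAY libraries, and the part of its makeup was not tested. BAY replicate 4 was far above the rest for H2-Oa (25.8 CPM against 6.62 to 8.05), H2-Ob (41.9 against 14.5 to 18.8) and H2-M10.5 (4.30 against 0.509 to 0.894), and VEH replicate 2 was at 0.921 CPM for H2-M10.5 with the other VEH-treated mice at 0.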

How the results depend on the processing

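In muscle, the 4 members called by the study's rule became 1 with log2(CPM + 1) (H2-Q7), 2 with median centring, quantile normalization or array weights (H2-Q7 and Tap1), and 3 with voom on recovered reads, and stayed 4 with log2(CPM + 0.1), the 1 CPM filter, no trend and the replicate block. Leaving out 1 mouse gave 1 to 5, with 1 (Tap1) without VEH replicate 2 and 2 (H2-Q7 and Tap1) without BAY replicate 4. The 7 members with an unadjusted P under 0.05 were 6 or 7 in every other setting and 6 to 9 when 1 mouse was left out, all higher in BAY.

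In bone, both counts of 1 became 0 with log2(CPM + 1), log2(CPM + 0.1), the 1 CPM filter, array weights and voom, and ran from 0 to 2 when 1 mouse was left out (H2-M10.5 and H2-Oa without VEH replicate 2). The replicate numbers belong to different mice in each group, and same-numbered libraries correlated at −0.089 to 0.0075 in muscle and −0.11 to 0.19 in bone; with the replicate block the counts were 4 and 7 in muscle and 1 and 1 in bone.

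No named member that passed in its tissue, the 7 in muscle and H2-M10.5 in bone, changed sign in any setting run; H2-M10.5 ran from 0.96 to 13.5 and passed without VEH replicate 2 alone when 1 mouse was left out. In muscle, Ciita went to −0.041 with median centring and −0.069 with quantile normalization, and H2-Ob to 1.62 with array weights and 0.014 with voom. Leaving out 1 mouse moved B2m between −0.44 and 0.047, Cd74 between −0.22 and 0.50, Ciita between −0.25 and 0.19, H2-Aa between −0.75 and 0.10, H2-Ab1 between −0.47 and 0.39, H2-Eb1 between −0.41 and 0.23, H2-DMb1 between −1.91 and 2.80 and H2-Ob between −1.80 and 1.70. In bone, median centring gave −0.33 for Ciita, −0.76 for H2-Aa, −0.38 for H2-DMa, −0.26 for H2-Ob, −0.040 for H2-Q10, −0.63 for H2-Q7, −0.83 for H2-T24, −0.67 for Nlrc5 and −0.27 for Tap1. Quantile normalization gave −0.053 for Ciita, −0.26 for H2-Aa, −0.17 for H2-DMa, −2.21 for H2-DMb2, −0.11 for H2-Ob, −0.11 for H2-Q7, −0.50 for H2-T24 and −0.33 for Nlrc5. Array weights gave 0.048 for B2m, 0.55 for Cd74, −0.70 for Ciita, −0.47 for H2-Aa, 0.57 for H2-D1, −0.20 for H2-DMa, −1.19 for H2-DMb2, 0.37 for H2-K1, −0.30 for H2-M5, −0.75 for H2-Ob, −0.84 for H2-Q10, 0.65 for H2-Q4, −0.72 for H2-Q7, −0.45 for H2-T24, −0.72 for Nlrc5 and −0.44 for Tap1. Voom gave 0.32 for H2-DMb1, 0.033 for H2-T22, 0.088 for H2-T23 and 0.30 for Tap2. Leaving out 1 mouse moved B2m between −1.46 and 0.046, Cd74 between −1.33 and 0.071, Ciita between −0.31 and 1.13, H2-Aa between −0.41 and 0.53, H2-DMa between −0.17 and 0.93, H2-DMb1 between −0.80 and 0.34, H2-DMb2 between −0.49 and 4.57, H2-K1 between −1.03 and 0.055, H2-Ob between −0.43 and 1.22, H2-Q10 between −0.34 and 1.52, H2-Q4 between −0.72 and 0.36, H2-Q7 between −0.44 and 0.55, H2-T22 between −0.22 and 0.24, H2-T23 between −0.48 and 0.31, H2-T24 between −0.42 and 0.46, Nlrc5 between −0.65 and 0.54, Tap1 between −0.16 and 0.98 and Tap2 between −0.65 and 0.22. The cause of these turns was not tested, and the array weights stopped before they converged.

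In bone 3 reads were worth 0.432 to 3.22 CPM, and 11 of the 12 M region genes were never above 3 times the olfactory receptor level. With 4 mice a side, no permutation P can fall below 0.0286.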
